A study of Mus musculus with 12 samples.

Results

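Complement components and regulators were followed in mouse mesenchymal stem cells from bone marrow whose actin filaments were disrupted. Such cells grow attached to the dish and can become bone, fat or cartilage cells. Members were the 8 rows of the deposited gene count table whose gene symbol is C3, C4b, C1s, C1ra, Cfb, Serping1, Cd55 or Cd59a, out of 23358 rows in all. RNA was sequenced from 4 groups of 3 libraries each: cells given both cytochalasin D and CK666 (CytoD+CK), cells given cytochalasin D alone (CytoD), cells given CK666 alone (CK), and untreated cells (Ctrl). Cytochalasin D, made by fungi, blocks the growing end of an actin filament, and CK666 inhibits the Arp2/3 complex, which starts branches on existing filaments. Cells of all 4 groups were grown with 10% serum at a plating density of 10000 cells per square centimetre for 1 day, after which the 3 treated groups received compound for 24 h. Compound concentrations, any vehicle in the Ctrl cultures, and the strain, age and number of the animals were not stated. The labels do not say whether replicates came from separate animals, isolations or dishes, so a p-value here reflects the spread among libraries that may be technical repeats.

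Complement is a cascade of plasma proteins that marks targets for uptake, draws in leukocytes and can open pores in membranes. In the classical pathway, C1q binds a target and activates the proteases C1r and C1s, which cut C4 and C2 to form a convertase that cuts C3. In the alternative pathway, factor B bound to C3b is cut by factor D to form another C3 convertase, so that C3 activation feeds on itself. Soluble inhibitors such as C1 inhibitor and membrane-bound ones (CD55, CD59) restrain the cascade on the body's own cells. The liver makes most of the plasma complement, and stromal cells and adipocytes make several components locally.

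The sum of gene counts was between 48930210 and 69269716 per library. Levels are in CPM, a count relative to the library total after that total was scaled by its TMM factor, and each ± is the SD over 3 libraries. The limit for a gene at 0 was set at 3 counts, or 0.0423 to 0.0634 CPM depending on the library, which covers counting error only. Each comparison used the quasi-likelihood test of edgeR over 13534 genes, with p-values adjusted after Benjamini and Hochberg, and a gene was called where the adjusted p was under 0.05. SE is the standard error of a log2 fold change. CK replicate 3 stood apart from the other CK libraries, its genes differing by a median of 0.289 on the log2 scale from replicate 1 and 0.276 from replicate 2, while these differed by 0.126, so calls of members that change without it are named below. Some markers of blood cells had no count in any of the 12 libraries: Ptprc, Emr1 and Tyrobp among 12 macrophage markers, and Cd3e, Hbb-b1 and Hba-a1 among 6 lymphoid and erythroid markers. Other macrophage markers were present: 7 of the 12 passed the filter on low counts, and the 12 summed to between 8.04 and 13.9 CPM per library.

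Of the 8 members, 7 passed the filter on low counts and Cd55 did not. Against Ctrl, 4 of the 7 rose and 1 fell with CytoD, where 37.9% of all tested genes were called (19.1% higher, 18.9% lower). With CK, 2 rose and 2 fell, against 41.1% of all tested genes called (22.5% higher, 18.7% lower). With both compounds, 2 rose and 1 fell, against 46.0% of all tested genes called (24.4% higher, 21.6% lower). The median log2 fold change of the 7 was 0.83 with CytoD, 0.24 with CK and -0.16 with both compounds, beside 0.02, 0.03 and 0.04 over all tested genes. In these bulk libraries, fewer cells of a type and less RNA per cell cannot be told apart.

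**Figure D1:**
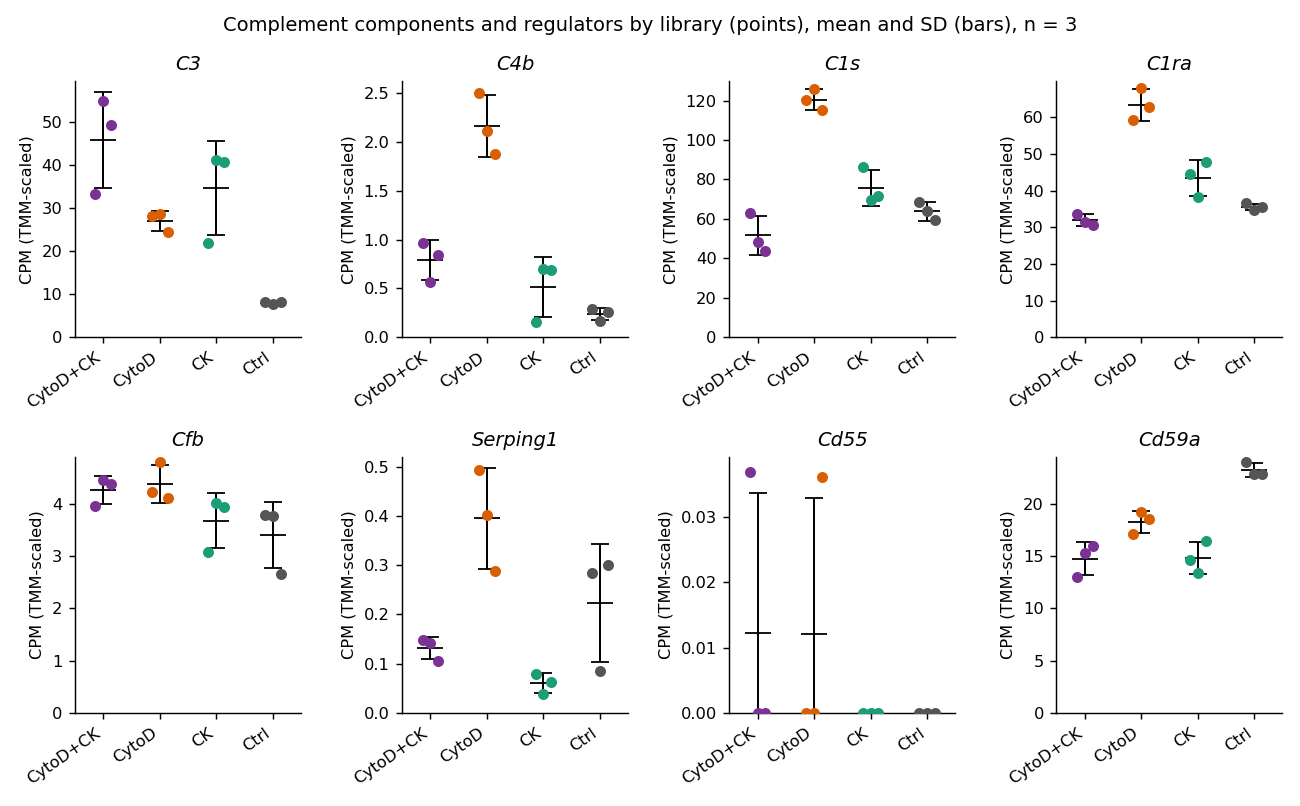
TMM-scaled CPM (y axis, linear, from 0) of the 8 members in each library (points), with group means and SD (bars, n = 3), for CytoD+CK, CytoD, CK and Ctrl. C3 was lowest in the 3 Ctrl libraries, C4b, C1s and C1ra were highest in the 3 CytoD libraries, and Cd59a was highest in the 3 Ctrl libraries.

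C1s and C1ra encode the serine proteases of the classical pathway's first complex. C1s had 62.9, 48.1 and 43.8 CPM in CytoD+CK, 120.3, 125.7 and 115.1 CPM in CytoD, 86.3, 69.4 and 71.4 CPM in CK, and 68.7, 63.8 and 59.2 CPM in Ctrl. C1ra had 33.7, 31.5 and 30.5 CPM in CytoD+CK, 59.3, 68.0 and 62.7 CPM in CytoD, 44.7, 38.1 and 47.7 CPM in CK, and 36.5, 34.7 and 35.5 CPM in Ctrl. For both genes the CytoD libraries lay above every other library, and the CytoD+CK libraries lay below the CK libraries. With CytoD, C1s was 1.88-fold higher than in Ctrl (log2 0.91, SE 0.12, adjusted p = 0.000107) and C1ra 1.78-fold higher (log2 0.83, SE 0.09, adjusted p = 1.2e-05).

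With CK, C1ra was 1.22-fold higher than in Ctrl (log2 0.29, SE 0.08, adjusted p = 0.0152), a call lost without CK replicate 3 (adjusted p = 0.0731), without any 1 Ctrl library (adjusted p = 0.0579, 0.0566 and 0.0743 without replicates 1, 2 and 3) and in a fit on the 2 groups alone (adjusted p = 0.0574). C1s did not pass in that comparison (log2 0.24, SE 0.12, adjusted p = 0.13). With both compounds, neither gene was called against Ctrl: C1s had a log2 fold change of -0.31 (SE 0.12, adjusted p = 0.0583) and C1ra of -0.16 (SE 0.09, adjusted p = 0.151). The C1s value was near the threshold and passed as lower in 13 of 22 alternatives, with adjusted p between 0.00301 and 0.237 over all of them. Those that passed included RLE factors (adjusted p = 0.0378), DESeq2 (0.0229), the 2 groups alone (0.0296), and the data without CytoD+CK replicate 1 (log2 -0.47, adjusted p = 0.00301), CK replicate 1 (0.0441), CK replicate 3 (0.0263) or Ctrl replicate 3 (0.0459). C1ra passed as lower in the 2 groups alone (adjusted p = 0.0157) and without CK replicate 3 (adjusted p = 0.031).

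The genes lie 6903 bases apart on chromosome 6 and are transcribed towards each other. C1ra (chr6:124512621-124523440, plus strand) and C1s (chr6:124530344-124542359, minus strand, also called C1s1) are given in coordinates of the mouse build GRCm38. The 250 bases before each annotated start, from the RefSeq promoter table for GRCm38.p6, are shown because the pair moved together while C3, shown further down, followed another order. Capitals mark matches on either strand to any of 4 motifs: the STAT site (GAS, TTCNNNGAA), the interferon-stimulated response element core (GAAA and GAAA with 2 bases of any kind between them), an NF-kB site (GGG and TTTCC with 2 bases of any kind between them) and a C/EBP site (TTGCNNAA).

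C1s, chr6:124542360-124542609, minus strand: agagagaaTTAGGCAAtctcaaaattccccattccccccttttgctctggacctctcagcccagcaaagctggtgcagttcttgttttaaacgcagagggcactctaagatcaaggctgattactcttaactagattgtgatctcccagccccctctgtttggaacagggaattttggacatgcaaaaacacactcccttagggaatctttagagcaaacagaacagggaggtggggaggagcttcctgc

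C1ra, chr6:124512371-124512620, plus strand: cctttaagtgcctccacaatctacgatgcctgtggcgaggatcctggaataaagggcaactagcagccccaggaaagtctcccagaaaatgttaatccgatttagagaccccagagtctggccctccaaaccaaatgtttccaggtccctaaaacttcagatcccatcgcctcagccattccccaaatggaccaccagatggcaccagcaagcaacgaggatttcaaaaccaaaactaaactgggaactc

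The C1s window held 1 C/EBP match, at positions -242 to -235 counted back from the annotated start, and the C1ra window held no match to the 4 motifs. A C/EBP match was present in 9.56% of 32851 promoter windows of this length, a GAS match in 7.02%, an ISRE core match in 2.98% and an NF-kB match in 1.41%. These are matches of letters and were not tested for binding.

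The ratio of C1s to C1ra, in CPM per kilobase of gene length, was between 1.33 and 1.88 in all 12 libraries: 1.49 ± 0.21 in CytoD+CK, 1.76 ± 0.10 in CytoD, 1.62 ± 0.21 in CK and 1.66 ± 0.10 in Ctrl (SD, n = 3 each). The libraries of the 4 groups overlapped in this ratio. The C1ra reads carry a limit: 48.0% of the 50-base windows of its transcripts also occur in C1rb, and 22.8% of those of C1s1 occur in C1s2 (Gm5077 in the table). Both copies had low rows, with C1rb between 0.0774 and 0.436 CPM and C1s2 between 0.247 and 0.512 CPM over all libraries. The span of C1s, introns included, also overlaps that of the antisense gene Gm16567 over 11400 bases. Overlap of their exons was not measured and no strand setting is stated, so whether Gm16567 reads enter the C1s row is not known.

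**Figure D2:**
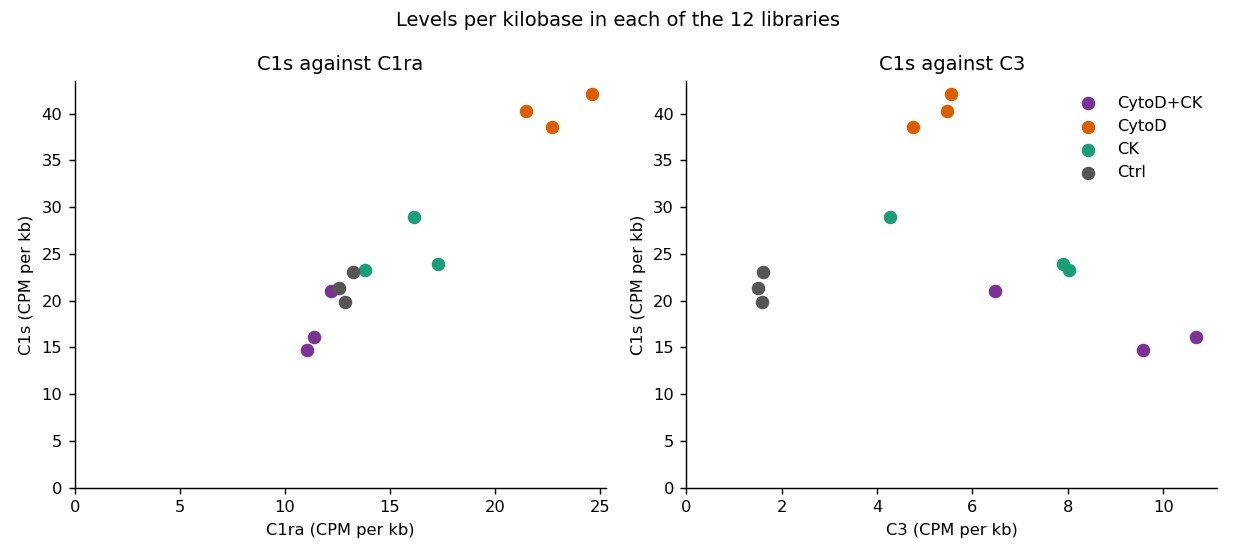
Levels of C1s (y axis, CPM per kilobase) against C1ra (left x axis) and C3 (right x axis, both CPM per kilobase) in each of the 12 libraries, coloured by group. C1s and C1ra were highest in the same 3 CytoD libraries, while C3 was highest in CytoD+CK libraries whose C1s was lowest.

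The recognition part of the complex was nearly absent. C1qb had no count in any library, C1qa had a count in 1 library and C1qc in 2, with at most 4 counts. C1rl, a protease related to C1r, was 0.70 times its CytoD level in CytoD+CK (46.4 ± 2.23 against 66.5 ± 1.56 CPM, log2 -0.52, SE 0.07, adjusted p = 0.000198). It was 0.80 times its Ctrl level in CytoD+CK (adjusted p = 0.00289). C1q chains, C1rl, Cr1l, Masp1 and Hc were named for their roles with values already seen, outside the rule for other genes.

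C4b encodes complement C4, the first substrate of C1s. Its levels were low in all groups: 0.961, 0.564 and 0.847 CPM in CytoD+CK, 2.51, 2.11 and 1.88 CPM in CytoD, 0.158, 0.696 and 0.688 CPM in CK, and 0.285, 0.169 and 0.263 CPM in Ctrl. The CytoD libraries, with 104 to 126 counts, lay above all others, and the CytoD+CK libraries lay between them and Ctrl. C4b was 8.94-fold higher with CytoD than in Ctrl (log2 3.16, SE 0.43, adjusted p = 0.000116) and 3.25-fold higher with both compounds (log2 1.70, SE 0.46, adjusted p = 0.008). With CK it did not pass (log2 1.11, SE 0.47, adjusted p = 0.0777). CK replicate 1 lay below the Ctrl libraries, and C4b passed without that library (adjusted p = 0.00345) and with DESeq2 (adjusted p = 0.0422).

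C4b (chr17:34728381-34743897, minus strand) has a near copy, C4a, with which it shares 35.2% of 50-base windows. C4a had 2 to 22 counts per library, so the C4b row held most of the reads given to either gene in CytoD. C2, whose product is cut beside C4 by C1s, was at or near 0 in 10 libraries and had 30 and 34 counts in CytoD replicates 2 and 3, against 2 counts in CytoD replicate 1. It did not pass the filter.

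C3 encodes the protein on which all complement pathways converge. It had 33.2, 54.8 and 49.2 CPM in CytoD+CK, 28.0, 28.5 and 24.4 CPM in CytoD, 21.9, 41.2 and 40.5 CPM in CK, and 8.27, 7.65 and 8.15 CPM in Ctrl. All 9 treated libraries lay above the 3 Ctrl libraries, and CK and CytoD+CK libraries overlapped. C3 was 5.7-fold higher with both compounds (log2 2.51, SE 0.23, adjusted p = 1.69e-06), 3.36-fold higher with CytoD (log2 1.75, SE 0.23, adjusted p = 7.04e-05) and 4.31-fold higher with CK (log2 2.11, SE 0.23, adjusted p = 1.27e-05), each against Ctrl. These 3 calls held in all 22 alternatives that gave a value.

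C3 (chr17:57203973-57228136, minus strand, GRCm38) had 1 C/EBP match in its promoter window, at -45 to -38, and none to the other motifs. The window is shown because C3 was the member with the highest relative rise in CK and CytoD+CK.

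C3, chr17:57228137-57228386, minus strand: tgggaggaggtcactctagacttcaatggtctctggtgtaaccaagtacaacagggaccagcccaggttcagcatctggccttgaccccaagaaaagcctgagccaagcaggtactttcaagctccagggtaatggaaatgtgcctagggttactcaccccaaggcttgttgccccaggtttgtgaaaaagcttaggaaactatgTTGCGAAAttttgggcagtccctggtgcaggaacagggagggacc

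Searches of the promoter windows of C3, C1s, C1ra, Cd59a and Cd55, the 5 members in the table, found no TATAAA, no CCAAT, no AP-1 site (TGANTCA) and no CArG box, which were present in 12.4%, 33.9%, 6.75% and 1.47% of all windows. An absent match says only that these letters are not in this window.

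Cfb encodes factor B, the catalytic part of the alternative C3 convertase. It had 3.96, 4.46 and 4.38 CPM in CytoD+CK, 4.23, 4.80 and 4.12 CPM in CytoD, 3.07, 4.02 and 3.94 CPM in CK, and 3.79, 3.76 and 2.67 CPM in Ctrl. The groups lay close together, and no comparison passed: log2 fold changes against Ctrl were 0.33 with both compounds (SE 0.16, adjusted p = 0.11), 0.37 with CytoD (SE 0.16, adjusted p = 0.0861) and 0.12 with CK (SE 0.16, adjusted p = 0.596). Per kilobase, Cfb stood at 0.180 ± 0.0372 of C3 in CytoD+CK, 0.304 ± 0.019 in CytoD, 0.209 ± 0.0459 in CK and 0.795 ± 0.162 in Ctrl. Cfb (chr17:34856374-34862514, minus strand) starts 87 bases from the end of C2. Its span, introns included, shares 6103 bases with that of the read-through gene Gm20547.

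Factor D, the protease that activates factor B, moved far more. Cfd, a marker of adipocytes, had 40.3, 59.4 and 54.8 CPM in CytoD+CK, 5.26, 4.36 and 4.01 CPM in CytoD, 8.67, 17.8 and 22.4 CPM in CK, and 0.2036, 0.2114 and 0.1503 CPM in Ctrl. The groups did not overlap. Against Ctrl, Cfd was 272-fold higher with both compounds (log2 8.09, SE 0.42, adjusted p = 1.91e-08), 23.9-fold higher with CytoD (log2 4.58, SE 0.46, adjusted p = 1.04e-05) and 86.3-fold higher with CK (log2 6.43, SE 0.42, adjusted p = 2.42e-07). The size of these folds rests on only 8 to 10 counts in each Ctrl library. CytoD+CK also exceeded CK by 3.15-fold (adjusted p = 0.00114).

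Serping1 encodes the C1 inhibitor, which blocks C1r and C1s. It was near the limit of detection, with 6 to 10 counts in CytoD+CK, 16 to 24 in CytoD, 2 to 4 in CK and 4 to 16 in Ctrl. In CPM these were 0.148, 0.141 and 0.106 in CytoD+CK, 0.493, 0.403 and 0.289 in CytoD, 0.0788, 0.0387 and 0.0626 in CK, and 0.285, 0.0846 and 0.301 in Ctrl. The CK libraries lay lowest, and CK replicate 2 was under the 3 counts that a count of 0 allows. CK replicates 1 and 3 and Ctrl replicate 2, with 4 counts each, may also lie under the limit if fragments were counted by both reads. CytoD+CK replicate 3, with 6 counts, would then lie at the limit. Serping1 fell with CK against Ctrl (log2 -1.87, SE 0.56, adjusted p = 0.0165), a call lost without CK replicate 2, Ctrl replicate 1 or Ctrl replicate 3 (adjusted p = 0.0528, 0.0575 and 0.0715). It was not called with CytoD (log2 0.80, SE 0.43, adjusted p = 0.16) or with both compounds (log2 -0.76, SE 0.48, adjusted p = 0.214). The row spans chr2:84765360-84775429 on the minus strand.

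Clu encodes clusterin, a chaperone that also binds the terminal complex. It was 3.57-fold higher with CytoD, at 12.5 ± 2.61 CPM, than in Ctrl, at 3.49 ± 1.02 CPM (log2 1.84, SE 0.31, adjusted p = 0.00049). It was not called with CK (log2 -0.44, SE 0.32, adjusted p = 0.295) or both compounds (log2 0.12, SE 0.31, adjusted p = 0.79).

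Cd59a encodes a membrane protein that blocks the last step of pore formation. It had 13.0, 15.3 and 16.0 CPM in CytoD+CK, 17.1, 19.2 and 18.6 CPM in CytoD, 14.6, 13.4 and 16.5 CPM in CK, and 23.9, 22.8 and 22.8 CPM in Ctrl. Every treated library lay below every Ctrl library. Cd59a was 0.64 times its Ctrl level with both compounds (log2 -0.65, SE 0.10, adjusted p = 0.000103), 0.79 times with CytoD (log2 -0.34, SE 0.09, adjusted p = 0.0123) and 0.64 times with CK (log2 -0.65, SE 0.10, adjusted p = 0.000171). Leaving out CytoD replicate 1 ended the CytoD call (adjusted p = 0.0529). Cd59a (chr2:104095801-104115351, plus strand) shares 3.87% of 50-base windows with Cd59b, which had 4 to 18 counts per library. Its promoter window held 1 match to the interferon-stimulated response element core, at -187 to -178.

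Cd55 encodes decay-accelerating factor, a membrane protein that takes C3 convertases apart. It had 2 counts in CytoD+CK replicate 1 and 2 counts in CytoD replicate 3 and no count in the other 10 libraries, all at or under the 3 counts that a count of 0 allows. Its copy Cd55b (Daf2 in the table) had no count. Cr1l, the rodent membrane regulator of C3 convertases, was measured at 52.6 to 61.7 CPM and was not called in any comparison (log2 fold changes between groups of -0.07 to 0.06, adjusted p = 0.451 to 0.961, and an interaction of 0.095, adjusted p = 0.555). CD55 and CD59 proteins are held on the membrane by a GPI anchor, and of 27 genes for anchor synthesis and attachment, all tested, 6 rose and 2 fell with CytoD, 8 rose and 1 fell with CK, and 8 rose and 1 fell with both compounds. Beside these counts, 37.9%, 41.1% and 46.0% of all tested genes were called, in that order.

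**Figure D3:**
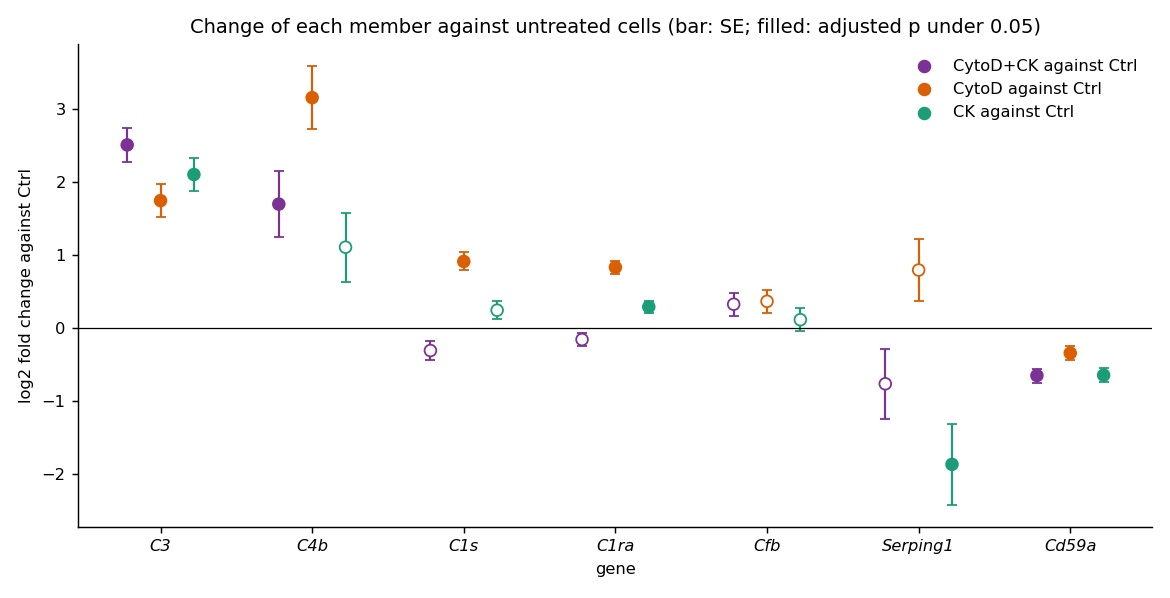
Log2 fold change against Ctrl (y axis) of the 7 tested members with CytoD+CK, CytoD and CK; bars are SE and filled points have an adjusted p under 0.05. C3 was higher and Cd59a lower with all 3 treatments, while C1s was called with CytoD alone.

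The design crosses the compounds, so the change with CytoD can be measured in cells with and without CK. In the presence of CK, C1s (log2 -0.55, SE 0.12, adjusted p = 0.0124) and C1ra (log2 -0.45, SE 0.09, adjusted p = 0.00455) were lower in CytoD+CK than in CK, while both rose with CytoD against Ctrl. No member rose and 2 fell in CytoD+CK against CK, where 11.6% of all tested genes were called (4.43% higher, 7.17% lower). The C1s call was lost without CytoD+CK replicate 2 (adjusted p = 0.0643) or replicate 3 (adjusted p = 0.0675), and both calls were lost in a fit on these 2 groups alone (adjusted p = 0.0926 for C1s and 0.0633 for C1ra). C3 did not pass against CK (log2 0.41, SE 0.21, adjusted p = 0.222), nor did C4b (log2 0.59, SE 0.40, adjusted p = 0.354).

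The test of the difference between these changes, the interaction, passed for 4 of the 7 members, all in the negative direction, where 14.3% of all tested genes were called (6.63% higher, 7.67% lower). It was -1.34 on the log2 scale for C3 (SE 0.31, adjusted p = 0.0128), -2.57 for C4b (SE 0.60, adjusted p = 0.0142), -1.47 for C1s (SE 0.18, adjusted p = 0.000324) and -1.28 for C1ra (SE 0.12, adjusted p = 6.73e-05). For C3 and C4b the change with CytoD was smaller in the presence of CK, and for C1s and C1ra its sign was the opposite. The 4 calls held in all 21 alternatives. The interaction was not called for Cfb (log2 -0.16, SE 0.22, adjusted p = 0.687), Serping1 (log2 0.31, SE 0.70, adjusted p = 0.807) or Cd59a (log2 0.34, SE 0.14, adjusted p = 0.115). It passed for Cd59a in 3 of 21 alternatives: without CK replicate 3 (log2 0.45, adjusted p = 0.0155), with the length correction (log2 0.40, adjusted p = 0.0268) and with the replicate block and length correction (log2 0.40, adjusted p = 0.0305).

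**Figure D4:**
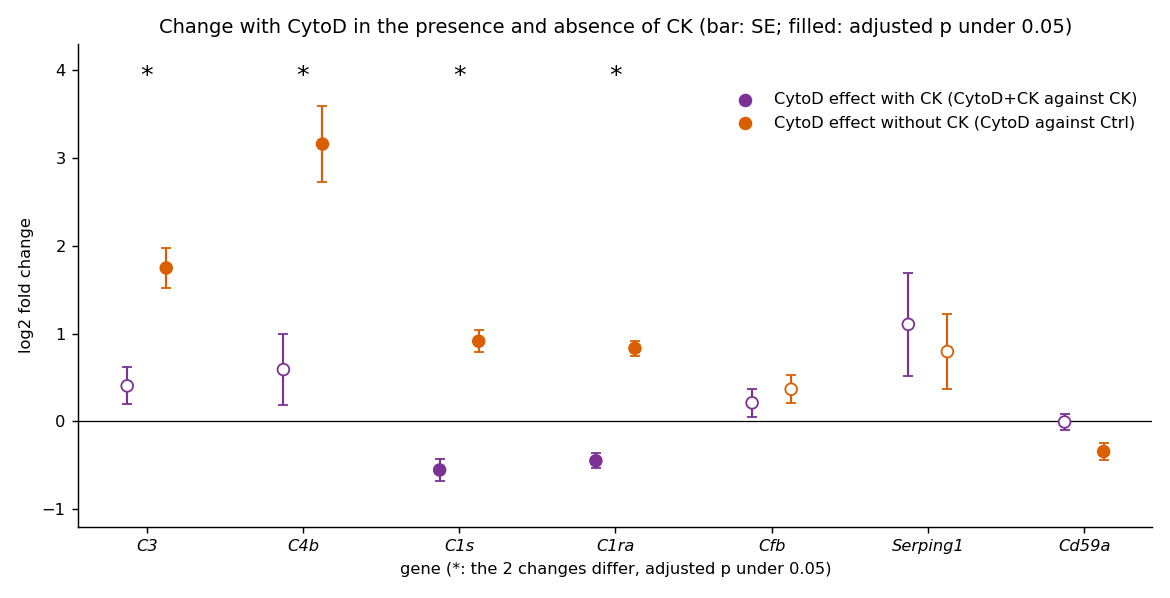
Log2 fold change with CytoD (y axis) in the presence of CK (CytoD+CK against CK) and in its absence (CytoD against Ctrl) for the 7 tested members; bars are SE, filled points have an adjusted p under 0.05, and asterisks mark members whose changes differ at that threshold. C1s and C1ra lie on different sides of 0 in the presence and absence of CK.

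Most tested members were lower with both compounds than with CytoD alone. In CytoD+CK against CytoD, 1 member rose and 5 fell, where 30.1% of all tested genes were called (15.8% higher, 14.3% lower). C3 rose (log2 0.76, SE 0.21, adjusted p = 0.0159), and the call was lost without CytoD+CK replicate 2, CytoD+CK replicate 3 or CytoD replicate 3 (adjusted p = 0.0773, 0.056 and 0.0669). C1s was 0.43 times its CytoD level (log2 -1.22, SE 0.12, adjusted p = 1.67e-05), C1ra 0.50 times (log2 -0.99, SE 0.09, adjusted p = 4.75e-06) and C4b 0.36 times (log2 -1.46, SE 0.37, adjusted p = 0.00972). The C4b call was lost without CytoD+CK replicate 2 (adjusted p = 0.0511).

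Both inhibitors also fell in that comparison, Serping1 by 1.56 on the log2 scale (SE 0.45, adjusted p = 0.0183) and Cd59a by 0.31 (SE 0.10, adjusted p = 0.0275). Neither call held throughout. Serping1 was lost without CytoD+CK replicate 2 or 3 or CytoD replicate 1 or 2 (adjusted p = 0.0579, 0.0719, 0.0705 and 0.0565) and with no filter on low counts (adjusted p = 0.0546). Cd59a was lost without CytoD+CK replicate 1 or 2 or CytoD replicate 2 or 3 (adjusted p = 0.107, 0.0545, 0.106 and 0.0854).

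Set directly against each other, the compounds differed in 5 members, all lower in CK than in CytoD, where 39.8% of all tested genes were called (22.9% higher, 16.8% lower). C4b was 0.24 times its CytoD level in CK (log2 -2.05, SE 0.39, adjusted p = 0.0013), C1s 0.63 times (log2 -0.67, SE 0.12, adjusted p = 0.00113) and C1ra 0.69 times (log2 -0.54, SE 0.08, adjusted p = 0.000342). Serping1 was lower in CK (log2 -2.67, SE 0.52, adjusted p = 0.0015), and so was Cd59a (log2 -0.30, SE 0.10, adjusted p = 0.0245), a call that ended on leaving out CytoD replicate 2 or 3 or CK replicate 1 or 2 (adjusted p = 0.0944, 0.0759, 0.0555 and 0.0836) and in the 2 groups alone (adjusted p = 0.0646). C3 was not called between the compounds (log2 0.36, SE 0.21, adjusted p = 0.199) but passed as higher in CK without CK replicate 1 (log2 0.60, adjusted p = 0.0104). These comparisons share libraries with those against Ctrl.

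The order of the members within a group, in CPM per kilobase, differed between groups. C1s was highest in every group, at 17.3 ± 3.35 in CytoD+CK, 40.3 ± 1.78 in CytoD, 25.4 ± 3.09 in CK and 21.4 ± 1.59 in Ctrl. C1ra came next in every group, but its libraries overlapped those of Cd59a in Ctrl. C3 came after these in CytoD+CK at 8.91 ± 2.18, overlapping Cd59a at 8.16 ± 0.855. In the other groups it came after Cd59a, at 5.25 ± 0.44 in CytoD, 6.73 ± 2.13 in CK, where it again overlapped Cd59a, and 1.56 ± 0.0634 in Ctrl. Cfb followed in all groups, at 1.24 to 1.60, and C4b, Serping1 and Cd55 lay lower still. C4b lay above Serping1 in CytoD+CK and CytoD, while their libraries overlapped in CK and Ctrl.

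Genes with the most similar pattern over the 12 libraries were found by Pearson's r of log2 CPM among 11530 genes with a mean of at least 1 CPM. These values describe differences between groups as well as within them and carry no test. C1ra was the gene most like C1s (r = 0.958), followed by Cd82 (r = 0.953) and Dscr3 (r = 0.951), and Dscr3 (r = 0.971), C1s and Spon2 (r = 0.954) were most like C1ra. C3 was matched by Hlx (r = 0.993), Lgals3bp (r = 0.988) and Slc13a4 (r = 0.987). C4b was matched by Shroom3, Amz1 and Sult1a1 (r = 0.925, 0.923 and 0.922), and Cd59a by Socs2, Ppp3cc and Lass5 (r = 0.958, 0.953 and 0.952). For the low or little-changing members the nearest were Il34, Ccdc76 and Ppp1r3f for Cfb (r = 0.89, 0.874 and 0.87) and Itga8, B3gnt1 and Loxl2 for Serping1 (r = 0.946, 0.938 and 0.934).

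Beyond the members, 51 other complement genes were listed, of which 21 were tested and 30 were not, and no gene left untested exceeded 0.614 CPM in any library. Of the 21, 8 rose and 2 fell with CytoD, 6 rose and 3 fell with CK, and 5 rose and 4 fell with both compounds. Their median log2 fold changes were 0.38, 0.19 and 0.13. Over all tested genes, 37.9%, 41.1% and 46.0% were called in these comparisons. The interaction passed for 7 of the 21, all negative, where 14.3% of all tested genes were called (6.63% higher, 7.67% lower). Among untested genes, C6, C7, C8a, C8b and C9 of the terminal pathway and Mbl1, Mbl2 and Masp2 of the lectin pathway had at most 6 counts in any library. Hc, the gene of C5, was also untested and had at most 16 counts. Masp1, a protease of the lectin pathway, was tested, at 52.8 to 109.8 CPM. It was called lower with CytoD, CK and both compounds (log2 -0.34, -0.70 and -0.51, adjusted p = 0.0373, 0.000453 and 0.00326).

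Gpr77, also called C5ar2, encodes a receptor for C5a. It had 28.3, 28.4 and 27.5 CPM in CytoD+CK, 13.5, 12.2 and 12.4 CPM in CytoD, 32.0, 30.6 and 31.5 CPM in CK, and 3.46, 1.78 and 1.92 CPM in Ctrl. The groups did not overlap, and replicates lay close together in the 3 treated groups. Against Ctrl it was 11.8-fold higher with both compounds (log2 3.56, SE 0.18, adjusted p = 1.56e-08), 5.32-fold higher with CytoD (log2 2.41, SE 0.18, adjusted p = 1.06e-06) and 13.1-fold higher with CK (log2 3.72, SE 0.18, adjusted p = 2.49e-08).

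C8g, a chain of the terminal component C8, was measured at 2.33 ± 0.519 CPM in CytoD+CK, 2.41 ± 0.295 in CytoD, 2.82 ± 0.744 in CK and 0.808 ± 0.261 in Ctrl. It was called as higher than in Ctrl with each treatment (log2 1.52, 1.57 and 1.80 with CytoD+CK, CytoD and CK, adjusted p = 0.000583, 0.000724 and 0.000218). Colec10, a collectin of the lectin pathway, fell with CK (log2 -1.81, SE 0.39, adjusted p = 0.00235) and with both compounds (log2 -1.22, SE 0.36, adjusted p = 0.0137), at levels under 1 CPM in all libraries.

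**Figure D5:**
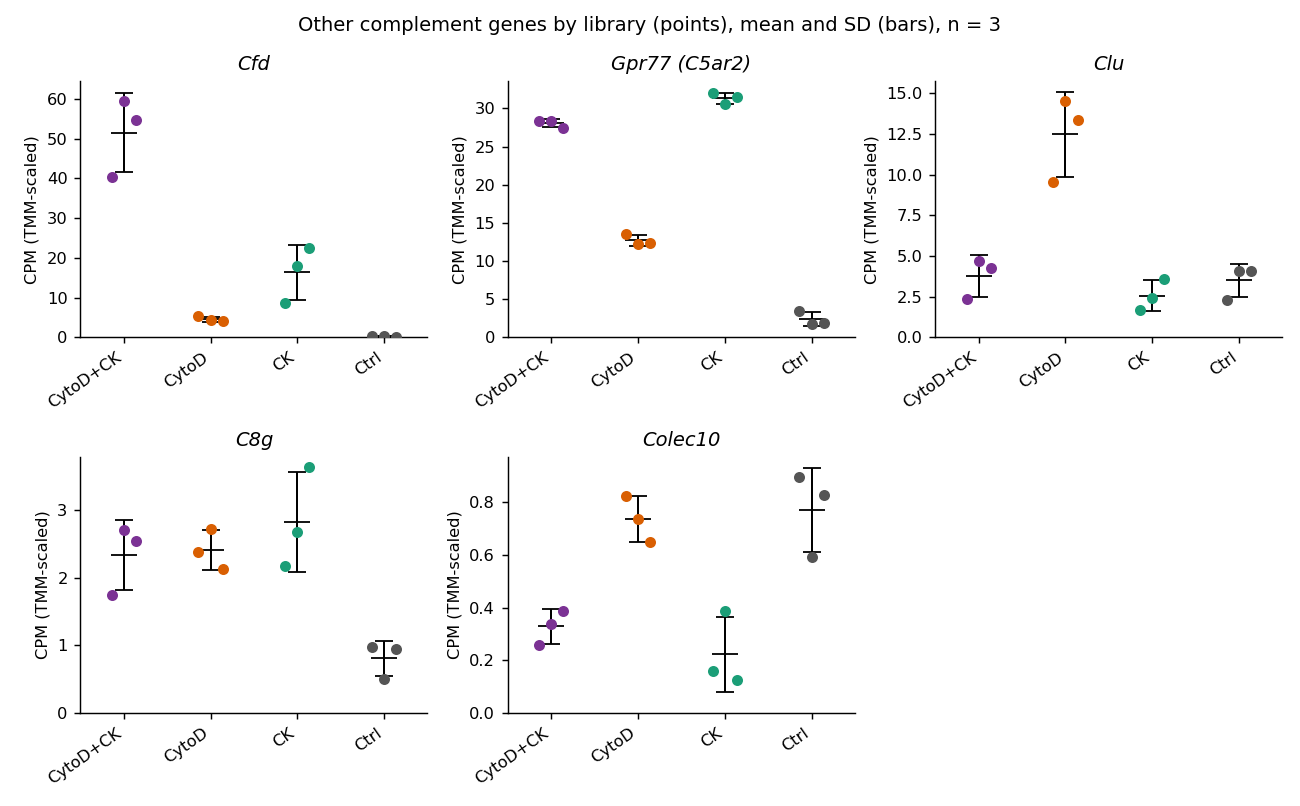
TMM-scaled CPM (y axis, linear, from 0) of 5 other complement genes in each library (points), with group means and SD (bars, n = 3). Cfd was highest in CytoD+CK, Gpr77 in CK, and Clu in CytoD.

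Complement genes are under the control of cytokine and nuclear receptor pathways. Of 33 tested genes in a list of such regulators, 8 rose and 4 fell with CytoD, 8 rose and 8 fell with CK, and 10 rose and 8 fell with both compounds. The shares called over all tested genes were 37.9%, 41.1% and 46.0%. Ifngr1, a chain of the interferon gamma receptor, had 237.3 ± 10.1 CPM in CytoD+CK, 411.7 ± 7.64 in CytoD, 212.6 ± 13.0 in CK and 176.8 ± 6.83 in Ctrl, and its interaction was negative (log2 -1.06, SE 0.09, adjusted p = 5.61e-05). Nr1h3, the liver X receptor alpha, rose with both compounds (log2 1.30, SE 0.08, adjusted p = 7.5e-08), CytoD (log2 0.91, SE 0.08, adjusted p = 4.76e-06) and CK (log2 1.21, SE 0.08, adjusted p = 2.94e-07). Socs1, an inhibitor of interferon signalling, was higher than in Ctrl with each treatment (2.14-fold, 2.14-fold and 2.09-fold with CytoD+CK, CytoD and CK, adjusted p = 8.06e-05, 0.000155 and 0.00017), with 3.87 ± 0.407 CPM in CytoD+CK, 3.86 ± 0.177 in CytoD, 3.77 ± 0.222 in CK and 1.80 ± 0.361 in Ctrl. Osmr, a receptor chain for oncostatin M, fell with CK (log2 -1.003, SE 0.12, adjusted p = 3e-05) and both compounds (log2 -0.72, SE 0.12, adjusted p = 0.000287) and was not called with CytoD (log2 -0.23, SE 0.12, adjusted p = 0.148).

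Among all tested genes, 37.9% were called with CytoD, 41.1% with CK and 46.0% with both compounds. Of 18 tested acute phase and innate secreted proteins, 11 rose and 2 fell with CytoD, 8 rose and 5 fell with CK, and 7 rose and 5 fell with both compounds. Orm1, an acute phase glycoprotein, rose with each treatment at levels of 0.622 ± 0.196 CPM in CytoD+CK, 0.406 ± 0.139 in CytoD, 0.614 ± 0.151 in CK and 0.0668 ± 0.0231 in Ctrl. Its Ctrl libraries had 2 to 4 counts, around the limit for a gene at 0, so the size of the rise is uncertain. Of 24 tested interferon response genes, 8 rose and 2 fell with CytoD, 8 rose and 3 fell with CK, and 8 rose and 4 fell with both compounds. They moved in different directions: Iigp1, an interferon-induced GTPase, had 14.8 ± 3.14 CPM in CytoD+CK, 11.9 ± 1.27 in CytoD, 6.02 ± 0.849 in CK and 0.533 ± 0.329 in Ctrl. Ifit2, which binds RNA, had 13.0 ± 3.04 CPM in CytoD+CK, 33.3 ± 0.496 in CytoD, 22.3 ± 6.94 in CK and 48.3 ± 0.554 in Ctrl.

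Markers of cell types moved with the same groups. All 15 tested adipocyte markers rose with each treatment against Ctrl, and the summed level of the 16 listed was 10790 to 13650 CPM in CytoD+CK, 8889 to 9186 in CytoD, 8455 to 11120 in CK and 3634 to 4297 in Ctrl, with Ctrl lowest, as for C3 and Cfd. Cfd is itself on that list, and Ctrl was also lowest without Lpl, its most abundant gene (748.4 to 821.3 CPM, against at least 1620 in any treated library). Of 11 tested marrow stromal markers, 4 rose and 3 fell with CytoD, 1 rose and 6 fell with CK, and 1 rose and 6 fell with both compounds. Their summed level was 12750 to 13440 CPM in CytoD+CK, 29830 to 31700 in CytoD, 13810 to 15200 in CK and 24400 to 26740 in Ctrl, with CytoD highest. That order rested on Cxcl12, the most abundant gene of the list: without it, a setting chosen after the values were seen, the sum was 7069 to 7738 CPM in CytoD+CK, 11840 to 12810 in CytoD, 8347 to 9064 in CK and 15960 to 17340 in Ctrl, with Ctrl highest. Of 10 osteoblast markers, 6 rose and 1 fell with CytoD, 1 rose and 3 fell with CK, and 5 rose and 3 fell with both compounds. Their summed level was highest in Ctrl, at 15290 to 16240 CPM. It was 7242 to 11400 CPM in CytoD+CK, 12100 to 13080 in CytoD and 9459 to 10810 in CK. Ctrl was also highest without Spp1, the list's most abundant gene (5329 to 6018 CPM, against at most 3607 in any treated library). Bglap and Ibsp, called as higher with both compounds, had 0 to 2 counts in each Ctrl library. For each of these lists, the shares of all tested genes called were 37.9% with CytoD, 41.1% with CK and 46.0% with both compounds. The part of these cell types in the complement values was not tested.

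Macrophages, endothelial cells and hepatocytes also make complement. The 12 macrophage markers summed to 8.69 to 9.58 CPM in CytoD+CK, 12.9 to 13.9 in CytoD, 8.04 to 10.6 in CK and 10.4 to 11.3 in Ctrl, and of 7 tested, 1 rose with CytoD, 1 rose and 3 fell with CK, and 2 rose and 2 fell with both compounds. The markers had different orders. Lyz2, a lysozyme of macrophages, had 2.64 ± 0.228 CPM in CytoD+CK, 5.33 ± 0.910 in CytoD, 1.66 ± 0.589 in CK and 1.56 ± 0.353 in Ctrl. Cd14, a receptor for bacterial lipopolysaccharide, had 1.75 ± 0.153 CPM in CytoD+CK, 3.64 ± 0.289 in CytoD, 2.62 ± 0.450 in CK and 4.31 ± 0.203 in Ctrl. Fcer1g, a signalling chain of Fc receptors, had 0.548 ± 0.0897 CPM in CytoD+CK, 0.407 ± 0.172 in CytoD, 0.932 ± 0.208 in CK and 0.387 ± 0.0968 in Ctrl. Emcn had no count in any library. The 8 endothelial markers, Emcn among them, summed to no more than 3.99 CPM and the 8 hepatocyte markers to no more than 7.97 CPM in any library. Of 2 endothelial markers tested, 1 rose with CytoD, none was called with CK, and 1 rose and 1 fell with both compounds. Of 4 hepatocyte markers tested, 1 fell with CytoD, 1 rose and 1 fell with CK, and 1 fell with both compounds. None of the 6 lymphoid and erythroid markers passed the filter. Counts of markers called stand beside 37.9%, 41.1% and 46.0% of all tested genes called with CytoD, CK and both compounds.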

How the data were processed

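The deposited table gives, per the file headers, a read count and an RPKM value for each gene and library; the authors' counts were analysed, and the deposited RPKM (the authors' counts per kilobase and relative to a library total 1.12 to 1.16 times the sum of gene counts) served only as a check. Per the submitters' processing notes, the tools were CASAVA 1.9, TopHat and HTSeq with the human build hg19. Symbols and coordinates are those of mouse GRCm38: GENCODE M21 holds 20970 of the row names, and 99.4% of these rows overlap its gene of that name. Every count was even; counting a fragment by both its reads would give this, and would make counting error larger than it looks. No strand setting is given in the sources used here.

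Genes were kept with filterByExpr (minimum count 10), scaled by TMM and fitted with a mean per group over all 12 libraries in edgeR 4.0.16 (R 4.3.3). Tests were 2-sided quasi-likelihood tests, adjusted within each of 7 comparisons and not across them, and an SE is the log2 fold change over the root of F. CPM carries no pseudocount, and log2 CPM for pattern likeness used a prior count of 2. The script was tested on simulated counts. Alternatives were RLE factors, DESeq2 1.42.0, no filter or 1 CPM in 3 libraries, the compared groups alone, a replicate block, a correction for gene length, both together, halved counts, removal of Rn45s and leaving out each library. Same-numbered CK and Ctrl libraries deviated together (r = 0.267, 0.189 and 0.316 over 8758 genes, across genes, which are not independent). Deviations from a mean of 3 libraries sum to 0 in each group, so these values cannot show that the numbers pair. For CytoD+CK and CK the same-numbered values were 0.238, -0.0945 and -0.302. The block changed no member's call in CK against Ctrl.

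The members and the 12 gene lists, with 243 entries, were chosen with earlier results of these data known. Genes outside the members were named when called in at least 1 comparison with at least a 2-fold change and groups that did not overlap, up to 6 per list by size, together with near copies of members; those printed are part of that set, picked after their values were seen. A few listed genes are not reported here. Alternative settings were written down together with the tests.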

Additional observations from a re-analysis of the deposited data

Results flagged for a closer look

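The change with CytoD differed between cells with and without CK for 4 members and 7 of 21 tested other complement genes. The test was of the difference itself (edgeR's quasi-likelihood test on the interaction term). Values are given for the 4 members and for 3 of those other genes, named by the rule on size of change. The change in the presence of CK minus that in its absence was -1.34 on the log2 scale for C3, -2.57 for C4b, -1.47 for C1s and -1.28 for C1ra. It was -2.93 for Cfd (SE 0.57, adjusted p = 0.00534), -2.57 for Gpr77 (SE 0.23, adjusted p = 5.61e-05) and -1.85 for C8g (SE 0.37, adjusted p = 0.00658). In C1s and C1ra the changes had unlike signs, while C3, C4b and Cfd were higher on average in CytoD+CK than in CK and in CytoD than in Ctrl. Gpr77 and C8g were higher in CytoD than in Ctrl and were not called between CytoD+CK and CK (adjusted p = 0.506 and 0.484). With 3 libraries per group, no formal outlier test of a single library was made.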

How the results depend on the processing

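Of the members' log2 fold changes under the alternatives, 993 kept their direction and side of the threshold, 22 passed it only there, 31 no longer passed and 8 reversed; the reversed ones were small and not called. Cfb without single libraries ranged from -0.062 to 0.229 in CK against Ctrl, -0.082 to 0.032 in CytoD+CK against CytoD and -0.267 to 0.004 in the interaction. Cd59a in CytoD+CK against CK was 0.069 with the length correction, 0.066 with the replicate block and length correction, and -0.073 to 0.092 without single libraries.

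In a fit on the compared groups alone, the number of members called was 2 in CK against Ctrl, 5 in CytoD+CK against Ctrl and 0 in CytoD+CK against CK (in place of 4, 3 and 2), and of other complement genes called in CytoD+CK against CK it was 1 (in place of 3). Over all genes, those fits called 3982 of 12980, 7408 of 13079 and 459 of 13086 tested, in that order. The fit on all libraries called 5565, 6225 and 1570 of 13534, so the member counts moved in the same directions as all genes. Leaving out single libraries gave 2 to 5, 3 to 5 and 1 to 2 members in those comparisons, 2 to 6 (6 with all libraries) in CytoD+CK against CytoD, lowest without CytoD+CK replicate 2, and 1 to 4 other complement genes in CytoD+CK against CK. Calls over all tested genes then ranged from 4358 to 5816, 5117 to 7735 and 745 to 2563 in the first 3 comparisons. In CytoD+CK against CytoD they ranged from 2890 to 5788, also lowest without CytoD+CK replicate 2. Same-numbered CytoD+CK and CytoD libraries also deviated together, as CK and Ctrl did (r = 0.395, 0.0917 and 0.384 for replicates 1, 2 and 3). In the other comparisons of 2 groups, same-numbered libraries did not all deviate together. With the replicate block, 5 other complement genes were called in CytoD+CK against CK, and 6 with the replicate block and length correction; C1s passed as lower in CytoD+CK against Ctrl (adjusted p = 0.014). C1s also passed in CK against Ctrl with the replicate block and length correction (log2 0.25, adjusted p = 0.0256). The cause of these shifts was not tested.

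Over all tested genes, calls in CytoD+CK against CK were 1570, and 459 (110 higher, 349 lower) in the groups alone, 2414 with the replicate block and length correction, 778 and 745 without CytoD+CK replicates 2 and 3, and 2563 without CK replicate 2. Calls in CK against CytoD were 5380, and 3558 in the groups alone. Fits on the groups alone gave more calls in CytoD against Ctrl (7344, in place of 5136) and in CytoD+CK against CytoD (5578, in place of 4067). Calls in CytoD against Ctrl were also more, at 6924, without CK replicate 3, although that comparison holds no CK library. Interaction calls were 1935, and 3024 with the replicate block and length correction, 1094 and 1115 without CytoD replicates 2 and 3, 3396 (1936 higher, 1460 lower) without CK replicate 3, and 1112 and 1114 without Ctrl replicates 2 and 3. Depth limits Serping1, C4b, Cd55 and the copies of members, with few counts per library. It also limits the Ctrl levels of Cfd (8 to 10 counts) and Orm1 (2 to 4 counts), on which their changes rest.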
